A study of Mus musculus with 4 samples.

Results

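Calb2 Cbln4 Sst cells are cortical inhibitory neurons that carry somatostatin mRNA (Sst) together with mRNA of Calb2, Cbln4 or both. They were chosen by their own counts of unique molecular identifiers (UMIs, each standing for 1 captured mRNA molecule). A cell needed 200 to 6000 detected genes, under 30% mitochondrial UMIs, at least 2 UMIs of Gad1 and Gad2 together, no UMI of Mog, an Sst level of at least 3000 CPM (counts per unit of 1000000 UMIs of the cell or of the summed cells), under 2 UMIs of Th, under 2 of Chodl and under 3 of Nos1. Its Calb2 and Cbln4 UMIs also had to sum to at least 2 and to more than both the Crh plus Tac2 sum and the Myh8 plus Nr2f2 sum. In all, 479 of the 12167 cortex cells deposited met the rule, in a series of 26987 cells from cortex and hippocampus.

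Somatostatin interneurons arise in the medial ganglionic eminence of the embryo, and many of them are Martinotti cells, whose axons climb to the surface of the cortex and inhibit the outer dendrites of pyramidal neurons. Those that also hold calretinin, the calcium buffer that Calb2 encodes, lie mostly in the upper layers, and Cbln4 encodes a cerebellin, a secreted protein that bridges neurexins on axons to partners on the receiving dendrite. NMDA receptors are glutamate-gated channels that cannot form without the subunit encoded by Grin1, so a neuron that loses Grin1 loses its NMDA receptors.

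The study asked what interneurons of this origin need NMDA receptors for, and profiled single cells of the mouse frontal cortex on the 10x platform. WT libraries came from Nkx2-1Cre:Grin1wt/wt mice and Grin1-null libraries from Nkx2-1Cre:Grin1fl/fl littermates, with an Ai14 reporter so that TdTomato marked the cells to be sorted, and both sexes were used at P18-20. The Cre acts from the embryo onward in all descendants of Nkx2-1 progenitors, so the deletion is neither limited to Sst cells nor recent, and the sorted material also held oligodendrocytes. The paper counts 10 WT and 6 null animals over all replicates, with 3 to 4 mice handled on successive days, and 6 brains for the 3 WT replicates in a figure legend. No number is given for a single library, so p-values here measure the spread between libraries and not between mice. The tissue was handled with TTX, APV and Actinomycin-D. Replicate 1 of each genotype was made with 10x chemistry v2 and the others with v3, and the null cortex has replicates 1 and 2 only.

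The 5 cortex libraries held 9306756, 14212183 and 28057207 UMIs in WT replicates 1, 2 and 3, and 1488601 and 25688337 in Grin1-null replicates 1 and 2. Values per library are given below in that order. The rule found 33, 146 and 235 cells in the WT libraries and 11 and 54 in the null libraries, which together carried 314956, 933065, 2348102, 185845 and 762584 UMIs. The median cell held 9580, 5872.5 and 9677 UMIs in WT and 17370 and 15010 in null libraries. The median null cell thus held more UMIs, and the reason was not tested. Over all gated Sst cells the medians overlapped, at 8061, 4742.5 and 8512 in WT and 8384 and 12742 in null libraries. Grin1-null replicate 1 rests on the fewest cells. Of 26892 distinct barcodes in the series 95 occurred in more than 1 library, among them that of 1 of these cells, and no barcode was shared between them. Scrublet, a doublet caller, marked 81 of 11792 cortex cells that passed the filter (0.687%) and 4 of the 479, 2 of them in WT replicate 3 and 2 in Grin1-null replicate 1.

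Sst, the neuropeptide that the rule reads, stood at 24988, 15009 and 19656 CPM in the WT libraries and 22718 and 25956 in the null libraries. Calb2 reached 1505, 1339.7 and 1819 in WT and 301 and 979.6 in null libraries. Cbln4 reached 146, 114 and 86.0 in WT and 215 and 259.6 in null libraries. These 3 genes selected the cells, so their levels are a description and were given no test in them. Within the selection the null libraries lay below all WT libraries for Calb2 and above all of them for Cbln4.

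Cells with UMIs of Calb2 alone numbered 263 (54.9%), those of Cbln4 alone 33 (6.89%), and 183 (38.2%) held both. More Cbln4 than Calb2 UMIs were seen in 2, 7 and 13 cells of the WT libraries, 6.06%, 4.79% and 5.53% of them. The same held for 6 and 20 cells of the null libraries, 54.5% and 37.0%. This balance comes from the UMIs that chose the cells, and the median null cell held more UMIs, so it is given as a description with no test. After every cell was thinned to 2000 UMIs and gated again, the WT shares were 5.26%, 0% (0 of 87 cells) and 0.769%. In null libraries they were 0% of 5 cells and 15.8% of 38 cells. The groups then overlapped only through those 5 cells, and Grin1-null replicate 2 lay above all WT libraries. At that depth 59.1% of the 22 WT cells with more Cbln4 kept a Cbln4 UMI. Of 376 WT cells with more Calb2, 88.3% kept a Calb2 UMI. Thinning thus weighs more on cells with more Cbln4, and the part of depth in the balance was not tested.

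**Figure D1:**
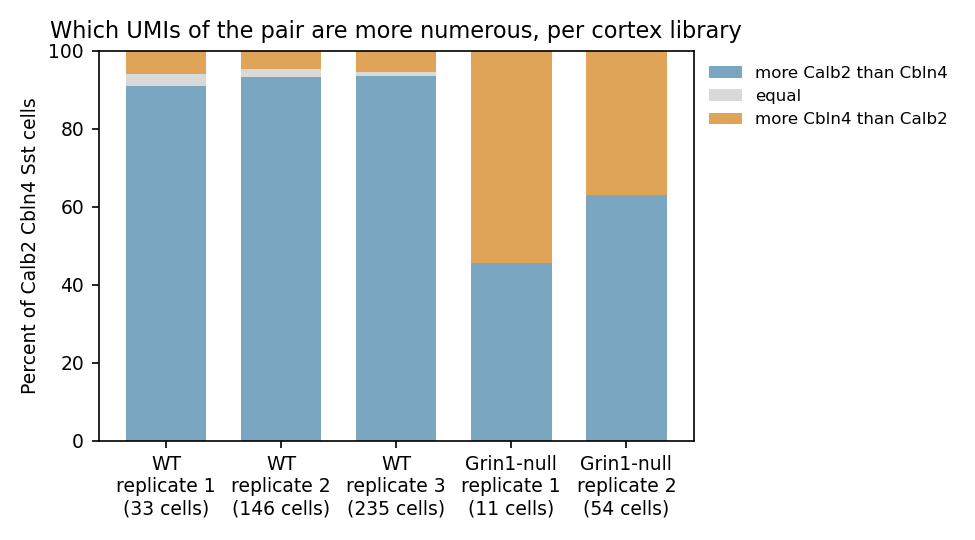
Percent of the Calb2 Cbln4 Sst cells of each cortex library with more Calb2 than Cbln4 UMIs, equal counts, or more Cbln4 than Calb2 UMIs. The part with more Cbln4 is 54.5% and 37.0% in the null libraries and at most 6.06% in the WT libraries.

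The same pair of genes can be read in all gated Sst cells, before either sum chooses a cell. There Cbln4 stood at 15.2, 29.6 and 22.1 CPM in WT and 67.0 and 66.8 in null libraries. The null libraries did not overlap the WT libraries, and edgeR's quasi-likelihood test gave a log2 change of 1.55 with a standard error (SE) of 0.30 and an adjusted p of 0.211. Calb2 stood at 147, 326 and 423 in WT and 107 and 265 in null libraries, which overlapped, with a log2 change of -0.70, SE 0.44 and an edgeR adjusted p of 1. Neither gene passed the threshold of adjusted p 0.01.

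At the threshold of the rule, 46 chosen cells had a Calb2 plus Cbln4 sum of exactly 2 and 189 Sst cells just outside had a sum of 1. A further 8 Sst cells with a sum of at least 2 were left out by a tie with another pair and 42 because another pair was larger. Olfm3, a marker that the rule does not read, stood at 230 CPM in the summed WT cells with a sum of exactly 2, 352 above it, 77.0 at a sum of 1 and 10.0 at a sum of 0. The corresponding values of Olfm3 in null cells were 33.2, 368, 101 and 14.7. The WT values fell step by step across the threshold, while in null cells the sum of exactly 2, which held 5 cells, lay below the sum of 1.

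The label was set beside markers that the rule does not read. Olfm3 had at least 1 UMI in 70.1% of the 414 WT cells (median 8345 UMIs) and in 69.2% of the 65 null cells (median 15210 UMIs). Oligodendrocytes, which should lack it, showed Olfm3 in 0.0682% of 1467 WT cells (median 4218 UMIs) and in 0.309% of 972 null cells (median 7984 UMIs). At an equal depth of 2000 UMIs per cell 42.7% of the WT and 41.5% of the null cells kept an Olfm3 UMI. Pdyn was seen in 47.1% of WT and 56.9% of null cells, against 0.545% and 0.103% of oligodendrocytes, and in 25.3% and 29.2% of thinned cells. Both given markers lay far above the background in cells that the rule chose without reading them. They were given with earlier results on these data known, so this describes the cells and is no independent check.

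Markers of the lineage were present as well. Lhx6, the transcription factor that specifies these interneurons, had a UMI in 55.8% of WT and 69.2% of null cells, against 0.409% and 0.514% of oligodendrocytes and 19.1% and 16.9% of the thinned cells. Sox6, which acts after Lhx6 in the same lineage, had one in 48.3% of WT and 53.8% of null cells, against 1.16% and 2.88% of oligodendrocytes and 18.4% and 10.8% of the thinned cells. Slc32a1, the transporter that loads GABA into vesicles, had one in 92.5% of WT and 98.5% of null cells, against 1.57% and 0.720% of oligodendrocytes and 59.3% and 61.5% of the thinned cells. The chosen cells thus carried lineage markers of Sst interneurons, along with the given markers Olfm3 and Pdyn.

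The neighbouring Sst cells of the WT cortex set the scale for both markers. An Olfm3 UMI was found in 9.62% of the cells whose largest pair was Crh plus Tac2 (the Crh Tac2 cells), 1% of those led by Myh8 plus Nr2f2 (the Myh8 Nr2f2 cells) and 7.52% of the 1037 WT Sst cells that no pair claimed. For Pdyn the same shares were 5.50%, 8.17% and 23.7%. Pdyn also reached 345, 207 and 287 CPM in WT and 533 and 138 in null libraries of the Sst cells that no pair claimed, against 159, 167 and 124 (WT) and 253 and 275 (null) in the Calb2 Cbln4 cells. Pdyn thus does not single out the chosen cells, since in all 3 WT libraries the unclaimed cells lay above them.

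Markers of other cell types were read as whole lists in the Calb2 Cbln4 cells. The 4 markers of interneurons from the caudal ganglionic eminence summed to 0, 0 and 0.852 CPM in WT and 0 and 2.62 in null libraries, with Vip and Adarb2 at 0 in all 5 libraries, the top gene Htr3a at 0.426 in WT replicate 3 and Prox1 at 2.62 in Grin1-null replicate 2. Of 6 glutamatergic markers the sums were 0, 1.07, 0.852, 0 and 1.31, with Slc17a6, Neurod6 and Neurod2 at 0 in all 5 libraries. The 3 endothelial markers summed to 0, 0, 0.852, 0 and 1.31, with Flt1 at 0 throughout and Pecam1 on top in Grin1-null replicate 2. These values lie close to 0, so transcripts of those types were nearly absent from the chosen cells.

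Glial lists were read in the same way. Of the microglial markers, Cx3cr1, P2ry12 and C1qa were at 0 in all 5 libraries. Astrocyte markers, 7 in number, summed to 15.9, 27.9, 27.7, 10.8 and 24.9, with Apoe, Slc1a2 or Aldoc on top and Aqp4, Gja1, Slc1a3 and Gfap at 0 in all 5 libraries. Precursors of oligodendrocytes were represented by 5 markers that summed to 3.17, 2.14, 3.41, 0 and 0, with Pdgfra at 0 in all 5 libraries and Olig1 or Cspg4 on top in WT. Only the 8 oligodendrocyte markers were seen widely, 7, 6, 8, 5 and 8 of 8 with a UMI, and they summed to 225, 93.2, 190.4, 108 and 168 CPM, with Mbp on top in Grin1-null replicate 1. Mog, which the rule bars, was 0 by choice, and the part of these transcripts in the results was not tested.

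Lists of other interneurons were read too. The 5 markers of neurogliaform cells summed to 15.9, 27.9, 22.2, 5.38 and 38.0, led by Hapln1 in 4 libraries, with Lamp5 at 0 in 3 libraries. The 5 markers of Pvalb cells had a UMI for 3, 5, 5, 3 and 3 of them and summed to 368, 415, 299.8, 258 and 603, led by Kcnc1, a potassium channel that Sst cells also use, except in Grin1-null replicate 2, where Tac1 led at 405 CPM. Tcap was at 0 in 3 libraries and Syt2 in WT replicate 1 and Grin1-null replicate 2.

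Some of these markers moved with the comparisons to other Sst cells given below, and their part in those results was not tested. Of the Pvalb list 3 could be tested and 2 were called higher in each comparison (medians 1.11 and 1.21). Pvalb, which encodes parvalbumin, a calcium buffer, stood at 50.8, 144 and 65.2 in WT and 96.9 and 28.9 in null libraries of the chosen cells, with log2 changes of 1.11 (SE 0.25) against Crh Tac2 and 1.21 (SE 0.22) against Myh8 Nr2f2 cells. Against Crh Tac2 cells its call was lost without WT replicate 1 (1.01, edgeR adjusted p 0.0106) or WT replicate 3 (0.72, edgeR adjusted p 0.157), at a sum of at least 3 (edgeR adjusted p 0.0153) and by DESeq2 (adjusted p 0.0116). The other calls were Kcnc1 against Crh Tac2 cells (0.53, SE 0.11) and Tac1 against Myh8 Nr2f2 cells (2.87, SE 0.52), the latter lost without Grin1-null replicate 2 (0.84, edgeR adjusted p 0.0816), in WT libraries only (edgeR adjusted p 0.0468) and by DESeq2 (adjusted p 0.422). With the gate on thinned cells that for Kcnc1 was lost (edgeR adjusted p 0.0428). Of the neurogliaform list 2 could be tested, and against Crh Tac2 cells Hapln1 was higher (2.60, SE 0.49) and Sema3c lower, with no call against Myh8 Nr2f2 cells. Of the astrocyte list 2 could be tested, with no call against Crh Tac2 cells and both lower against Myh8 Nr2f2 cells, Slc1a2 and Apoe (-2.08, SE 0.34), the latter lost without WT replicate 2 (edgeR adjusted p 0.0176). With no library block the calls were lost for Pvalb in both comparisons (edgeR adjusted p 0.622 and 0.321), Kcnc1 (0.703), Tac1 (0.0326), Hapln1 (0.0154) and Apoe (0.0441). Tac1, Hapln1 and Apoe were named here after their values were seen. Of the oligodendrocyte list 3 could be tested and none was called in either comparison.

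Among gated Sst cells the chosen cells made up 8.03%, 19.4% and 19.9% in the WT libraries (95% Wilson intervals 5.77 to 11.1, 16.7 to 22.4 and 17.8 to 22.3). In the null libraries they made up 15.7% and 21.4% (intervals 9.01 to 26.0 and 16.8 to 26.9). WT replicate 1 lay below all other libraries and the groups overlapped. Means were 15.8% ± 6.73 (SD, n = 3) in WT and 18.6% ± 4.04 (SD, n = 2) in null libraries, a difference of 2.78 points with a two-sided exact permutation p of 0.8. With 3 against 2 libraries such a two-sided test cannot give a p as low as 0.1, whatever the values. Without WT replicate 1 the difference turned to -1.10 points and without Grin1-null replicate 2 to -0.0778, so its sign rests on single libraries.

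Thinning every cell to 2000 UMIs before the gate changed which cells count as Sst cells. It took out 144, 204 and 334 of them in WT and 22 and 75 in null libraries, and let in 27, 43 and 98 in WT and 4 and 89 in null libraries. Of those let in, 14, 25, 47, 3 and 73 had too many UMIs of Th, Chodl or Nos1 before thinning, and 9, 4, 30, 1 and 11 held a UMI of Mog, the oligodendrocyte gene that the rule bars. The shares became 6.46%, 14.7% and 13.8% in WT and 9.62% and 14.3% in null libraries. The groups overlapped again. The means, 11.7% ± 4.52 (SD, n = 3) and 12.0% ± 3.30 (SD, n = 2), differed by 0.294 points (two-sided exact permutation p of 1). This difference turned to -2.30 points without WT replicate 1 and to -2.04 without Grin1-null replicate 2, so no change of share with genotype was detectable with these libraries.

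What sets these cells apart was tested against 2 other Sst groups of the same libraries, Crh Tac2 cells (344) and Myh8 Nr2f2 cells (675). The test used UMIs summed per library and group with the library as a block. The 1166 Sst cells that no pair claimed were in neither comparison. A difference given below therefore holds against the 2 groups only and may not hold against the unclaimed cells, as seen for Pdyn. Grin1-null replicate 1 had 7 Crh Tac2 cells, under the minimum of 10, and its sum was left out, so that comparison spans 4 library pairs and the other 5. The 13 genes that the rules read were not tested. A gene was called where its adjusted p lay below 0.01 and its change reached 0.1 in natural logs, which is 0.144 in log2, the limits that the authors used. Against Crh Tac2 cells 822 of 8432 genes were called (9.75%), 443 higher and 379 lower in the Calb2 Cbln4 cells. Against Myh8 Nr2f2 cells 752 were called (8.92%), 414 higher and 338 lower. Every count of called list members below stands beside these shares, so 1 call in a short list is not read as a result about the list. Of all genes tested, 30.2% against Crh Tac2 and 21.4% against Myh8 Nr2f2 cells differed the same way in every library. The same direction in every library therefore marks little by itself. Both comparisons share the Calb2 Cbln4 sums, and 218 genes were higher and 142 lower in both. WT replicate 3 holds about as many of the chosen cells as all other libraries together, and without it the counts were 483 and 438.

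Olfm3 (ENSMUSG00000027965.11, chromosome 3, 114904078 to 115125722 in mm10 by GENCODE vM21) encodes a secreted olfactomedin that binds AMPA-type glutamate receptors. It stood at 209.6, 373 and 349.6 CPM in the WT and 334 and 350.1 in the null libraries of the Calb2 Cbln4 cells. In Crh Tac2 cells it reached 8.32, 16.4 and 22.3 in WT and 7.28 in the null library, and in Myh8 Nr2f2 cells 0, 3.63 and 2.29 (WT) and 0 and 0 (null). Every library of the chosen cells lay above every library of both other groups. The log2 change was 4.42 (SE 0.17, edgeR adjusted p 3.96e-19) against Crh Tac2 and 7.68 (SE 0.22, edgeR adjusted p 5.25e-23) against Myh8 Nr2f2 cells. Of the other olfactomedins, only 3 of 7 could be tested with Olfm3 included, and their median log2 change was -0.55 and -0.19, beside 0.00 and -0.01 over all genes tested. None but Olfm3 was higher, and 1 was lower against Crh Tac2 cells.

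Pdyn (ENSMUSG00000027400.7, chromosome 2, 129686565 to 129699844) encodes prodynorphin, the source of peptides that act on kappa opioid receptors. Its levels in the Calb2 Cbln4 cells were 159, 167 and 124 CPM in WT and 253 and 275 in null libraries. Crh Tac2 cells held 6.93, 9.35 and 10.6 (WT) and 14.6 (null), and Myh8 Nr2f2 cells 33.1, 41.7 and 27.5 (WT) and 199 and 24.1 (null). The chosen cells lay above the other groups of the same library, although Myh8 Nr2f2 cells of Grin1-null replicate 1 lay above the chosen cells of all 3 WT libraries. Log2 changes were 3.93 (SE 0.27, edgeR adjusted p 3.20e-13) and 2.22 (SE 0.18, edgeR adjusted p 2.37e-11). Olfm3 and Pdyn were given as markers with earlier results on these data known, so their p-values are no independent support.

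**Figure D2:**
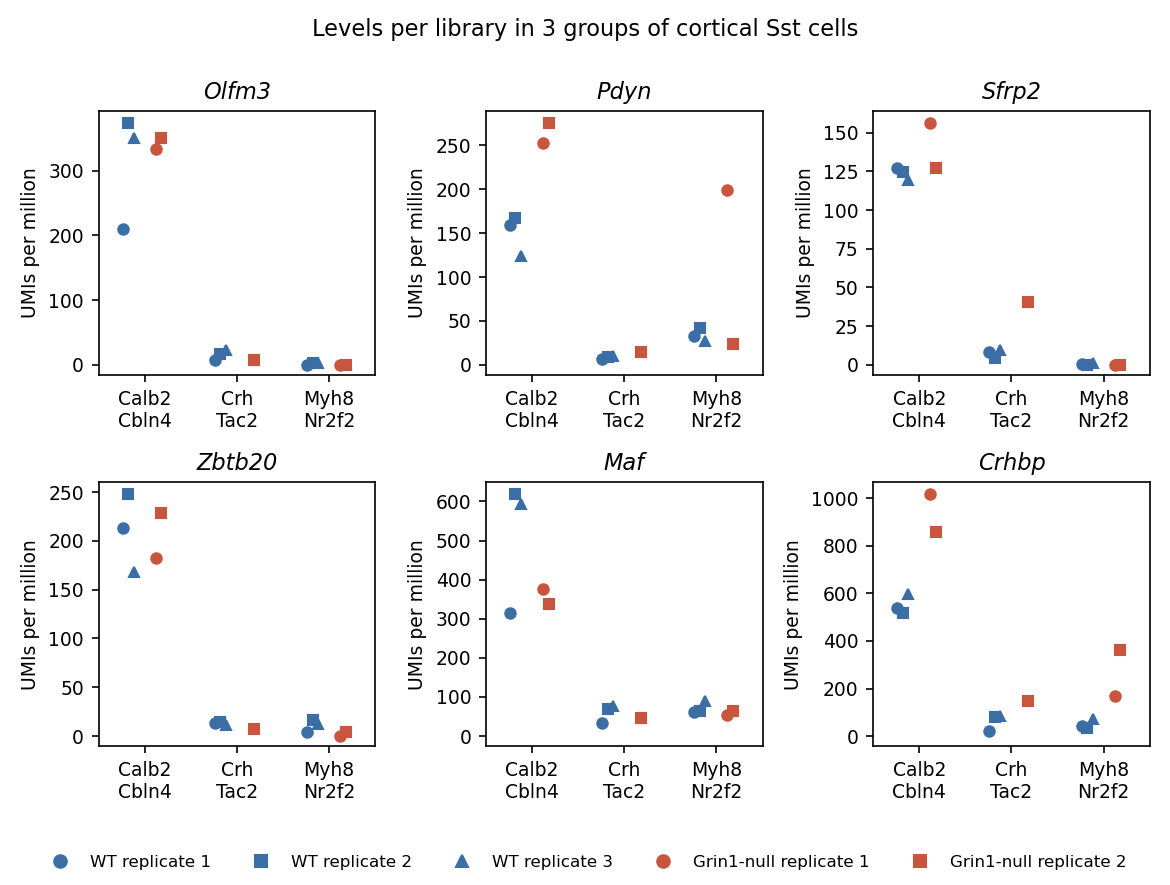
CPM of Olfm3, Pdyn, Sfrp2, Zbtb20, Maf and Crhbp in each cortex library of the Calb2 Cbln4, Crh Tac2 and Myh8 Nr2f2 Sst cells, with WT in blue and Grin1-null in red and 1 point per library. The Calb2 Cbln4 cells lie above the other groups of the same library in all 6 panels.

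Other neuropeptide genes followed. Of 16 in the list, 9 could be tested, with 3 higher and 2 lower against Crh Tac2 cells (median log2 change 0.47) and 4 higher and 2 lower against Myh8 Nr2f2 cells (median -0.33). Nppc, which encodes C-type natriuretic peptide, stood at 514, 228 and 385 in WT and 183 and 361 in null libraries, against 51.3, 9.35 and 52.8 (WT) and 42.3 (null) in Crh Tac2 and 58.9, 25.4 and 58.6 (WT) and 103 and 86.2 (null) in Myh8 Nr2f2 cells. No library of the other groups reached the lowest of these values, and the log2 changes were 3.14 (SE 0.17, edgeR adjusted p 1.58e-15) and 2.65 (SE 0.15, edgeR adjusted p 1.05e-15). Npy, a peptide that many Sst cells release, stood at 4500 to 6969 in the chosen cells and 1764 to 2981 in Crh Tac2 cells, a log2 change of 1.18 (SE 0.18, edgeR adjusted p 4.80e-06) with no overlap, though DESeq2 gave an adjusted p of 0.0133 and no call. Cck, the cholecystokinin gene, was at 0, 8.57 and 18.3 in WT and 0 and 17.1 in null libraries of the chosen cells, below the 41.6 to 216 of Crh Tac2 cells in every library, with a log2 change of -3.01 (SE 0.33, edgeR adjusted p 1.68e-08). Cartpt, whose peptide is known from feeding circuits, was lower against Myh8 Nr2f2 cells, at 5.38 to 78.2 against 105 to 544, with a log2 change of -2.56 (SE 0.21, edgeR adjusted p 2.39e-11).

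Peptide receptors and binding proteins were few: 5 of 24 could be tested, 3 higher and none lower against Crh Tac2 cells (median 2.38), and 1 higher and 1 lower against Myh8 Nr2f2 cells (median 0.40). Crhbp, whose product captures corticotropin-releasing hormone outside the cell, stood at 537, 518 and 596 in WT and 1017 and 858 in null libraries. Crh Tac2 cells held 19.4, 81.9 and 82.8 (WT) and 149 (null), and Myh8 Nr2f2 cells 40.3, 34.4 and 70.1 (WT) and 169 and 362 (null). The chosen cells were higher in every library, by 3.05 (SE 0.24, edgeR adjusted p 9.17e-12) and 2.67 (SE 0.21, edgeR adjusted p 6.68e-12) on the log2 scale. Rxfp3, a receptor of relaxin-type peptides, stood at 22.2, 25.7 and 39.2 in WT and 10.8 and 11.8 in null libraries and was called higher than in Crh Tac2 cells, where 3 UMIs in all were counted and no fold is given. Sstr1, a somatostatin receptor, was lower than in Myh8 Nr2f2 cells (5.38 to 54.0 against 28.7 to 97.6), with a log2 change of -0.84 (SE 0.18) that lost its call without WT replicate 3 (edgeR adjusted p 0.01002) or with no library block (edgeR adjusted p 0.234).

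The largest rises included the oxytocin receptor Oxtr, which few cortical neurons carry and which was at 76.2, 91.1 and 75.8 in WT and 113 and 60.3 in null libraries. In Crh Tac2 cells Oxtr reached 0, 0 and 1.76 (WT) and 2.91 (null), and in Myh8 Nr2f2 cells 15.3, 10.9 and 9.82 (WT) and 0 and 13.8 (null). The chosen cells lay above both groups in each library, with log2 changes of 5.68 (SE 0.36, edgeR adjusted p 5.99e-14) and 2.79 (SE 0.21, edgeR adjusted p 1.98e-12). Sfrp2, a secreted protein that binds Wnt ligands, stood at 127, 124 and 119.7 (WT) and 156 and 127 (null). It was at 8.32, 4.68 and 9.39 (WT) and 40.8 (null) in Crh Tac2 cells and 0.807, 0 and 0.982 (WT) and 0 and 0 (null) in Myh8 Nr2f2 cells. The 5 libraries of the chosen cells were close to each other and above all libraries of both groups. Log2 changes were 3.08 (SE 0.25, edgeR adjusted p 8.50e-12) and 7.28 (SE 0.37, edgeR adjusted p 1.01e-16). A fold set against levels near 0 CPM, such as this 7.28, is uncertain in size, here and for other genes named.

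Col25a1, a membrane-bound collagen, stood at 60.3, 106 and 104 in WT and 113 and 257 in null libraries, against 1.39, 0 and 7.04 (WT) and 2.91 (null) in Crh Tac2 and 0, 0 and 3.93 (WT) and 0 and 0 (null) in Myh8 Nr2f2 cells. The lowest of the chosen libraries exceeded the highest of the others, and log2 changes were 4.89 (SE 0.32, edgeR adjusted p 7.59e-14) and 5.86 (SE 0.31, edgeR adjusted p 3.61e-16). Thbs2, a thrombospondin of the matrix, ranged from 15.9 to 41.3 and rose by 5.05 (SE 0.50) and 5.09 (SE 0.43) against the 2 groups. Pcsk5, a protease that activates secreted precursors, ranged from 16.1 to 45.0 and rose by 5.77 (SE 0.50) and 6.33 (SE 0.46). Col11a1, a fibrillar collagen, rose by 3.31 (SE 0.42) and 4.35 (SE 0.41) to 19.1 to 59.2 CPM.

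Chst15, which sulphates chondroitin, ranged from 38.1 to 63.2 in the chosen cells and rose by 5.06 (SE 0.43) against Crh Tac2 and 2.47 (SE 0.26) against Myh8 Nr2f2 cells. Ust, which adds sulphate to uronic acid, ranged from 16.1 to 25.7 and rose by 1.79 (SE 0.36) and 4.69 (SE 0.48). Hpse, the heparanase that cuts heparan sulphate, ranged from 12.7 to 59.2 and rose by 2.41 (SE 0.36) and 4.86 (SE 0.44). These 3 genes were called in both comparisons. Nkain3, a partner of the sodium pump, ranged from 53.8 to 110.3 and rose by 5.39 (SE 0.33) and 4.65 (SE 0.26). Filip1, which binds the actin cross-linker filamin, rose by 4.42 (SE 0.31) and 1.65 (SE 0.18) to 22.3 to 94.3.

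Of 28 listed transcription factors of the lineage, 22 could be tested, with 9 higher and 4 lower against Crh Tac2 cells (median log2 change 0.31) and 9 higher and 6 lower against Myh8 Nr2f2 cells (median 0.17). Zbtb20, a zinc-finger repressor, stood at 213, 248 and 168 in WT and 183 and 228 in null libraries. It was at 13.9, 14.0 and 11.7 (WT) and 7.28 (null) in Crh Tac2 and 4.03, 16.3 and 12.4 (WT) and 0 and 4.60 (null) in Myh8 Nr2f2 cells. No value of the other groups came near, and log2 changes were 4.13 (SE 0.21, edgeR adjusted p 1.44e-16) and 4.41 (SE 0.19, edgeR adjusted p 1.21e-18). Maf, a leucine-zipper factor that Sst cells need to mature, stood at 314, 619.5 and 594 in WT and 377 and 337 in null libraries. Its levels were 33.3, 70.2 and 78.1 (WT) and 45.2 (null) in Crh Tac2 and 60.5, 63.5 and 88.4 (WT) and 54.3 and 64.4 (null) in Myh8 Nr2f2 cells. Again the groups did not overlap, with log2 changes of 3.06 (SE 0.13, edgeR adjusted p 1.51e-18) and 2.75 (SE 0.11, edgeR adjusted p 6.39e-19).

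Tox, a DNA-binding protein of the HMG-box family, ranged from 70.0 to 146 and rose by 3.28 (SE 0.24) and 3.89 (SE 0.23). Etv1, an ETS factor of activity-dependent interneuron programs, ranged from 21.5 to 47.2 and rose by 6.18 (SE 0.69) against Crh Tac2 but 1.75 (SE 0.32) against Myh8 Nr2f2 cells. Id4, which blocks other helix-loop-helix factors, rose by 4.52 (SE 0.44) and 2.34 (SE 0.28) to 15.7 to 52.8. Lower against both groups were Satb1, a chromatin organiser that Sst cells need (-1.07, SE 0.08, and -1.10, SE 0.08), and Npas1, a repressor of interneuron production (-1.71, SE 0.12, and -1.35, SE 0.12). Sox6 split the comparisons, with a log2 change of 1.67 (SE 0.17) against Crh Tac2 and -0.70 (SE 0.12) against Myh8 Nr2f2 cells, the latter lost without WT replicate 3 (edgeR adjusted p 0.0144) or with no library block (edgeR adjusted p 0.179).

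Glutamate receptors of the AMPA and kainate kind, with their partners, were tested for 16 of 20 genes, of which 7 were higher and 2 lower against Crh Tac2 cells (median log2 change 0.22) and 5 higher and none lower against Myh8 Nr2f2 cells (median 0.21). Gria1, the AMPA receptor subunit GluA1, stood at 438, 651 and 604 CPM in WT and 786 and 839 in null libraries. Crh Tac2 cells held 148, 274 and 183 (WT) and 165 (null), and Myh8 Nr2f2 cells 209.7, 343 and 291 (WT) and 308 and 412 (null). The chosen cells were higher in every library and did not overlap either group, with log2 changes of 1.78 (SE 0.11, edgeR adjusted p 5.99e-14) and 1.10 (SE 0.10, edgeR adjusted p 1.41e-10). Cacng5, an auxiliary subunit of AMPA receptors, rose by 4.36 (SE 0.49) against Crh Tac2 and 1.19 (SE 0.26) against Myh8 Nr2f2 cells, the latter lost without WT replicate 2 (edgeR adjusted p 0.0102), at a sum of at least 3 (edgeR adjusted p 0.019) or with no library block (edgeR adjusted p 0.04). Grik3, a kainate receptor subunit, was higher by 1.21 (SE 0.16) against Crh Tac2 cells, from 26.2 to 65.5 to 82.6 to 119.

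NMDA receptor subunits numbered 5 tested of 7, Grin1 among them. Against Crh Tac2 cells 1 was lower (median 0.09), and against Myh8 Nr2f2 cells 1 was higher (median 0.13). Over all genes tested 9.75% and 8.92% were called. The former was Grin2b, the subunit of slow and early NMDA receptors, at 403, 529 and 438 in WT and 307 and 244 in null libraries, with 541, 858 and 723 (WT) and 402 (null) in Crh Tac2 cells and a log2 change of -0.63 (SE 0.09, edgeR adjusted p 3.68e-06). The latter was Grin2a, which replaces it during maturation, with 36.7 to 94.1 against 23.0 to 67.5 and a log2 change of 0.63 (SE 0.13, edgeR adjusted p 0.000741). The call for Grin2a was lost without WT replicate 3 (edgeR adjusted p 0.0158) or WT replicate 2 (edgeR adjusted p 0.0119), and with no library block neither subunit was called (edgeR adjusted p 0.582, and 0.221 for Grin2b).

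Of the metabotropic receptors and their Elfn organisers 7 of 9 could be tested, 2 higher and 1 lower against Crh Tac2 (median -0.08) and 1 higher and 1 lower against Myh8 Nr2f2 cells (median 0.17). Grm4, an inhibitory receptor, stood at 12.7, 30.01 and 23.9 in WT and 32.3 and 53.8 in null libraries and rose by 3.14 (SE 0.38) and 3.21 (SE 0.33). Grm3, another inhibitory receptor, was nearly absent at 0, 3.22 and 5.54 (WT) and 0 and 2.62 (null), with log2 changes of -3.29 (SE 0.31) and -2.79 (SE 0.31). Elfn1 draws presynaptic mGluR7 to the excitatory synapses that Sst cells receive, and stood at 254, 369.7 and 348 (WT) and 291 and 271 (null). Crh Tac2 cells held less of it, 86.0, 105 and 117 (WT) and 90.3 (null), without overlap and with a log2 change of 1.66 (SE 0.11, edgeR adjusted p 1.62e-13). Against Myh8 Nr2f2 cells Elfn1 was not called.

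GABA receptor genes were tested for 13 of 14. Against Crh Tac2 cells, where 9.75% of all genes were called, none was called higher and 5 were called lower (median log2 change -0.39). Against Myh8 Nr2f2 cells, where 8.92% of all genes were called, 2 were higher and 2 lower (median -0.08). Gabrd, the delta subunit of receptors outside synapses, was higher than in Myh8 Nr2f2 cells (22.2 to 54.9 against 4.03 to 13.8), by 2.20 (SE 0.28, edgeR adjusted p 3.56e-07). Gabra4 was lower against both groups (-1.10, SE 0.13, and -0.73, SE 0.13), though without WT replicate 3 its edgeR adjusted p against Myh8 Nr2f2 cells was 0.0314, and with no library block 0.0691. Genes of GABA synthesis, transport and chloride balance were tested for 7 of 8, with medians of 0.02 and 0.13, and only 1 was called in each comparison, Abat, the enzyme that degrades GABA, higher by 0.68 (SE 0.10) and 0.76 (SE 0.10). Both calls were lost with the gate on thinned cells (0.41, edgeR adjusted p 0.0355, and 0.55, edgeR adjusted p 0.0111) and the former with no library block (edgeR adjusted p 0.0251).

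Cadherins and protocadherins, which hold neurons together by binding their own kind, were tested for 19 of 23 genes. Against Crh Tac2 cells 6 were higher and 1 lower (median log2 change 0.27), and against Myh8 Nr2f2 cells 10 were higher and 2 lower (median 0.61). Pcdh8, a protocadherin that neuronal activity induces, stood at 187, 178 and 146 in WT and 102 and 148 in null libraries, against 2.77, 0 and 14.1 (WT) and 11.7 (null) in Crh Tac2 and 6.45, 32.6 and 16.4 (WT) and 12.1 and 18.4 (null) in Myh8 Nr2f2 cells. The groups did not overlap, and log2 changes were 4.05 (SE 0.26, edgeR adjusted p 7.59e-14) and 3.28 (SE 0.21, edgeR adjusted p 3.04e-14). Cdh7, a classical cadherin, stood at 102, 212 and 197 (WT) and 151 and 185 (null) and rose by 2.60 (SE 0.15) and 2.58 (SE 0.14). Pcdh18 and Pcdh11x rose as well, Pcdh18 by 2.44 and 2.28 and Pcdh11x by 1.54 and 1.99. Cdh2, N-cadherin, was the gene lower than in Crh Tac2 cells, by 2.05 (SE 0.15), and Cdh12 fell by 2.73 (SE 0.25) against Myh8 Nr2f2 cells.

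Cbln4 works through neurexins, and of 17 other cerebellins, neurexins and partners, 16 are in the files and 8 could be tested. In each comparison 2 were higher and none lower (median log2 changes 0.11 and 0.07). Nrxn3, a presynaptic neurexin, rose by 0.66 (SE 0.08) and 0.37 (SE 0.08), the latter lost without WT replicate 3 (edgeR adjusted p 0.0148) or WT replicate 2 (edgeR adjusted p 0.0157), and both lost with no library block (edgeR adjusted p 0.0186 and 0.267). Nlgn1, the neuroligin of excitatory synapses, was higher than in Myh8 Nr2f2 cells, at 12.7 to 46.1 against 0 to 6.03, by 3.33 (SE 0.33, edgeR adjusted p 9.06e-10).

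Calcium-binding proteins other than calretinin were tested for 20 of 21, with 7 higher and 4 lower against Crh Tac2 (median log2 change -0.13) and 4 and 4 against Myh8 Nr2f2 cells (median 0.01). Calb1, the buffer calbindin, stood at 1480, 835 and 712 in WT and 1324 and 1671 in null libraries, against 279, 194 and 215 (WT) and 367 (null) in Crh Tac2 cells. The groups did not overlap and the log2 change was 2.1 (SE 0.10, edgeR adjusted p 1.08e-16). Rcn1, a calcium binder of the endoplasmic reticulum, ranged from 27.5 to 58.8 and rose by 2.74 (SE 0.28) and 3.42 (SE 0.27). Ncald, a neuronal calcium sensor, ranged from 96.9 to 236 and changed by -1.72 (SE 0.12) and -2.02 (SE 0.12). Kcnip1 and Kcnip4 encode calcium-binding partners of A-type potassium channels, and the first rose by 1.14 and 0.88, the latter lost with no library block, while Kcnip4 fell by 2.59 (SE 0.20) against Crh Tac2 cells.

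Potassium and HCN channels were tested for 23 of 28 genes, with 2 higher and 6 lower against Crh Tac2 (median -0.02) and 7 higher and 5 lower against Myh8 Nr2f2 cells (median 0.20). Kcnj3, the inward rectifier that G proteins open, ranged from 6.35 to 27.5 and changed by -1.77 (SE 0.19) and -1.32 (SE 0.18), the latter lost with the gate on thinned cells (-1.17, edgeR adjusted p 0.0201). Kcnc4, a fast channel of the Kv3 family, ranged from 10.8 to 44.5 and changed by -1.44 (SE 0.17) and -1.46 (SE 0.16). Its relative Kcnc2 was lower than in Crh Tac2 cells by 1.15 (SE 0.10), and Kcns3, a silent subunit that alters other channels, was higher than in Myh8 Nr2f2 cells by 3.07 (SE 0.32). Kcnh7, an ERG-family channel, was lower than in Crh Tac2 cells (-1.17, SE 0.24) but higher than in Myh8 Nr2f2 cells (1.38, SE 0.30), and the former call was lost without WT replicate 2 (edgeR adjusted p 0.0108) or WT replicate 3 (edgeR adjusted p 0.0376), by DESeq2 (adjusted p 0.0119) and with no library block (edgeR adjusted p 0.230). The latter was lost at a sum of at least 3 (edgeR adjusted p 0.0156), in WT libraries only (edgeR adjusted p 0.0251) and with no library block (edgeR adjusted p 0.0193). Among 25 cholinergic and monoamine receptors, 24 are in the files and 12 could be tested, 3 higher and 3 lower against Crh Tac2 (median -0.08) and 2 and 2 against Myh8 Nr2f2 cells (median -0.26). Chrna2, a nicotinic receptor subunit of deep-layer Martinotti cells, was nearly absent at 0, 2.14 and 1.28 in WT and 0 and 1.31 in null libraries, against 33.9, 36.3 and 30.8 (WT) and 48.2 and 51.7 (null) in Myh8 Nr2f2 cells, with no overlap and a log2 change of -4.63 (SE 0.35, edgeR adjusted p 2.26e-12).

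Genes used to name other cortical Sst types were tested for 12 of 25, with 7 higher and 2 lower against Crh Tac2 (median log2 change 1.44) and 6 higher and 2 lower against Myh8 Nr2f2 cells (median 1.34). Calb1, Etv1 and Hpse belong to this list and were given above. Mme, a membrane protease that cuts neuropeptides, ranged from 9.53 to 68.6 and rose by 3.28 (SE 0.29) and 4.34 (SE 0.29). Sema3c, a secreted guidance protein, was the largest fall against Crh Tac2 cells, at 0, 1.07 and 1.28 in WT and 0 and 2.62 in null libraries of the chosen cells against 66.6, 72.5 and 65.2 (WT) and 39.3 (null). The groups did not overlap and the log2 change was -5.39 (SE 0.40, edgeR adjusted p 3.02e-12). Erbb4, the neuregulin receptor of interneurons, stood at 15.9, 33.2 and 16.6 (WT) and 21.5 and 34.1 (null) against 182, 253 and 173 (WT) and 221 (null), again without overlap, and its log2 change was -3.08 (SE 0.19, edgeR adjusted p 1.53e-14).

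Other large falls against Crh Tac2 cells were the LIM-domain protein Lmo1 (-3.89, SE 0.30), the oxygen-sensing hydroxylase Egln3 (-3.51, SE 0.33), the sorting receptor Sorcs3 (-3.34, SE 0.37) and the cation channel Trpc5 (-3.24, SE 0.25). Dab1, which relays reelin signals inside the cell, changed by -3.17 (SE 0.35), the secreted factor Ndnf by -3.09 (SE 0.32) and the serotonin receptor Htr2c by -3.17 (SE 0.39), the last not called by DESeq2 (adjusted p 0.0322). Against Myh8 Nr2f2 cells the muscle-type myosins Myh13 (-4.99), Myh4 (-3.46) and Myh1 (-3.26) fell. They lie within the same cluster on chromosome 11 as Myh8, a gene the rule reads. Myh1 starts at 67200052, Myh4 at 67238029, Myh8 at 67277124 and Myh13 at 67321658. Whether their falls are independent of Myh8 was not tested. Further falls were Lypd1, a brake on nicotinic receptors (-4.57, SE 0.35), Csgalnact1, which starts chondroitin chains (-3.50, SE 0.46), the lipid phosphatase Ppapdc1a (-3.41, SE 0.19) and Parm1 (-3.17, SE 0.20). Slc1a2, a glutamate transporter (-2.92, SE 0.23), is also a marker of astrocytes, and Il1rapl2, a synaptic adhesion protein, changed by -2.90 (SE 0.32).

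Activity-regulated genes were tested for 12 of 24 in the subtype comparisons, with 4 higher and none lower against Crh Tac2 (median 0.47) and 2 higher and 1 lower against Myh8 Nr2f2 cells (median 0.31). Junb, an immediate early transcription factor, was higher against both, by 1.46 (SE 0.21) and 0.99 (SE 0.18), at 25.4 to 191 CPM. The call against Myh8 Nr2f2 cells was lost with the gate on thinned cells (edgeR adjusted p 0.0108), and both were lost with no library block (edgeR adjusted p 0.147 and 0.423). Heat-shock and dissociation-stress genes, tested for 7 of 11, gave no call by edgeR in either comparison, with medians of -0.01 and -0.04.

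**Figure D3:**
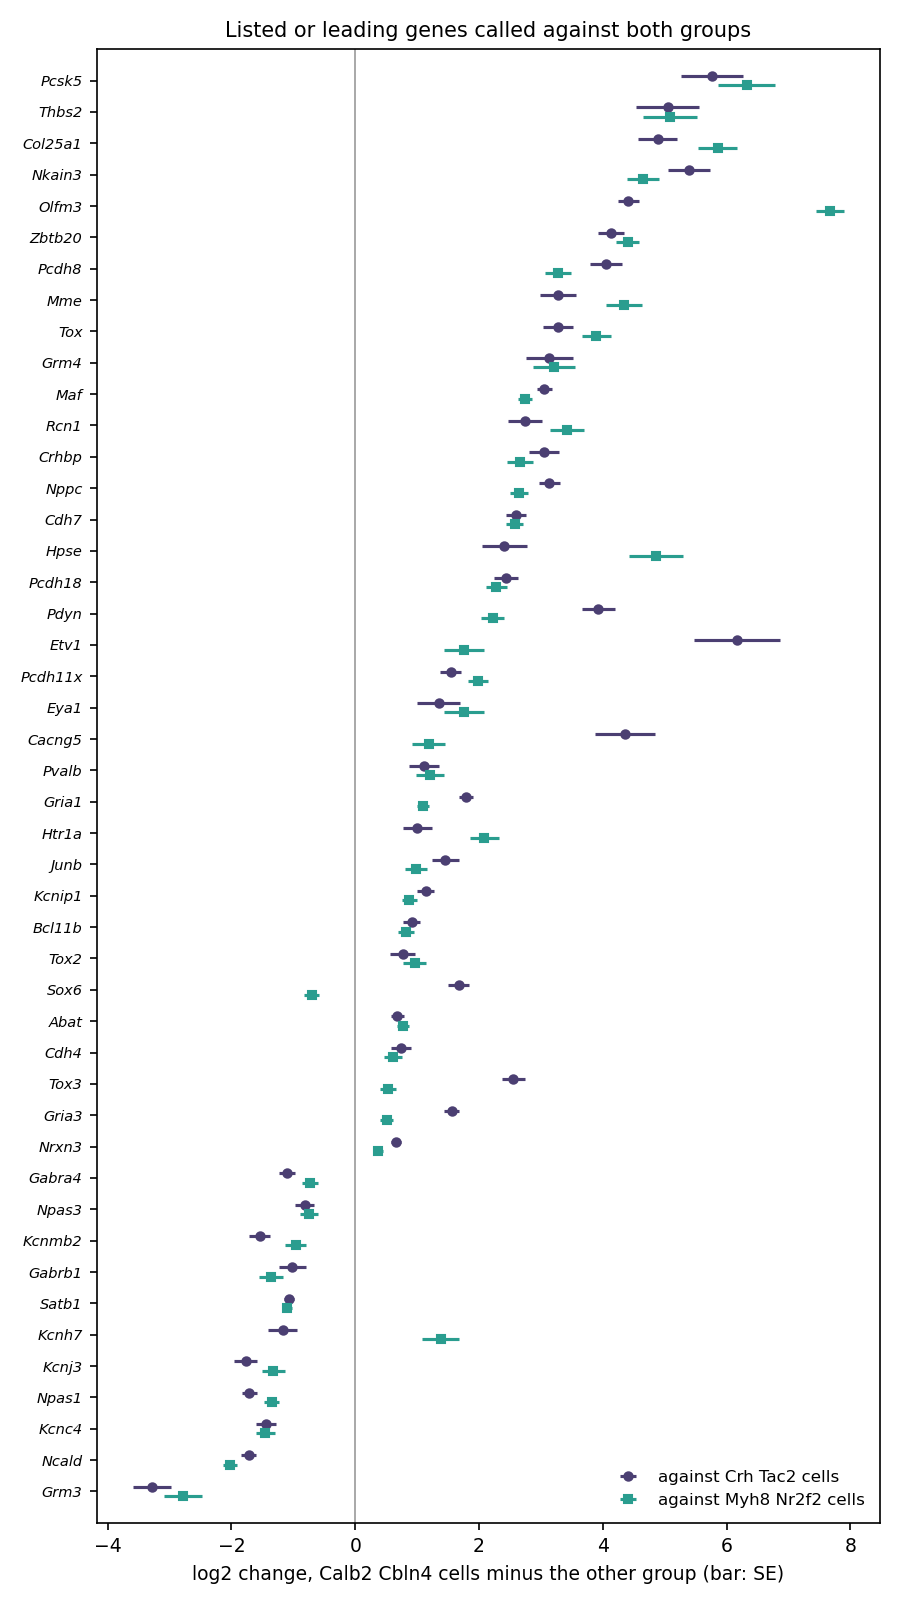
Log2 change with SE of 46 of the listed or leading genes called in both subtype comparisons, Calb2 Cbln4 cells minus Crh Tac2 cells (circles) and minus Myh8 Nr2f2 cells (squares). Both changes have the same sign for 44 of them, and Sox6 and Kcnh7 are the exceptions.

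The effect of losing NMDA receptors was tested in the Calb2 Cbln4 cells alone, Grin1-null minus WT, on 5 library sums. Grin1 (ENSMUSG00000026959.9, chromosome 2, 25291181 to 25319187) stood at 121, 317 and 252 CPM in WT and 37.7 and 45.9 in null libraries. All null values lay below all WT values, and the log2 change was -2.46 (SE 0.42, edgeR adjusted p 0.0116), just short of the call at 0.01. DESeq2 called it (adjusted p 0.000378), as did edgeR without WT replicate 1 (adjusted p 3.07e-06) or with the replicate number, which goes with the 10x chemistry, as a block (adjusted p 0.000681), while over all alternatives the adjusted p ran from 1.7e-06 to 0.797. A Grin1 UMI was found in 85.0% of WT and 30.8% of null cells, against 2.11% and 0.926% of oligodendrocytes, and in 37.2% and 10.8% of cells thinned to 2000 UMIs. The genotype labels are borne out by these values.

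Between genotypes 3 of 8179 genes were called (0.0367%), all higher in null cells, and 369 had an unadjusted p under 0.05. Groups did not overlap for 1612 genes (19.7%), so lack of overlap alone marks little with 5 libraries. The filter on gene number and mitochondrial share had kept 9037 of 9088 deposited WT cells and 2755 of 3079 null cells, and the part of this difference in the results was not tested. Without WT replicate 1 the count was 18, without WT replicate 2 it was 5, and without Grin1-null replicate 1 it was 8, the last with a lone null library that is assumed to vary like the others.

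Igfbp6 (ENSMUSG00000023046.6, chromosome 15, 102144362 to 102149511) encodes a secreted protein that binds insulin-like growth factors, with a preference for IGF-II. It stood at 0, 1.07 and 2.13 CPM in WT and 161 and 61.6 in null libraries. The WT libraries held almost none, the null libraries lay far above, and the log2 change was 5.80 (SE 0.59, edgeR adjusted p 4.96e-06). In the other Sst groups Igfbp6 was at 5.55, 11.7 and 11.2 in WT and 11.7 in the null library of Crh Tac2 cells, and at 3.23, 5.44 and 1.31 (WT) and 24.1 and 117 (null) in Myh8 Nr2f2 cells. Its difference of differences was not called (log2 2.81, SE 0.78, edgeR adjusted p 0.110), so the rise is not shown to belong to the Calb2 Cbln4 cells. Of the alternatives only the fit with no filter on low counts called it (edgeR adjusted p 0.00881), and in the others the edgeR or DESeq2 adjusted p ran up to 0.910.

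Akr1c18 (ENSMUSG00000021214.9, chromosome 13, 4132615 to 4150654) encodes an enzyme that inactivates progesterone. Its levels were 6.35, 2.14 and 6.39 in WT and 194 and 86.6 in null libraries. Both null libraries exceeded all WT libraries, with a log2 change of 4.62 (SE 0.48, edgeR adjusted p 4.96e-06). Crh Tac2 cells had 1.39, 0 and 0.587 in WT and 0 in the null library. An Akr1c18 UMI was found in 0 of 600 WT and 0 of 75 null Myh8 Nr2f2 cells, which allows shares of up to 0.5% and 4%, and with that group at 0 the fitted difference between groups has no standard error and is not read.

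S100a10 (ENSMUSG00000041959.10, chromosome 3, 93555080 to 93564643) encodes p11, a small partner of annexin A2 that carries receptors and channels to the membrane. It stood at 22.2, 5.36 and 17.0 in WT and 178 and 118 in null libraries, without overlap, and its log2 change was 3.32 (SE 0.42, edgeR adjusted p 0.000119). Without Grin1-null replicate 2 the change was 3.68 and the call was lost (edgeR adjusted p 0.0124). Null libraries were also the higher ones in the other groups, at 26.3, 58.5 and 68.7 in WT and 93.2 in the null library of Crh Tac2 cells and 37.1, 25.4 and 29.5 (WT) and 133 and 238 (null) in Myh8 Nr2f2 cells. The difference between groups was not called (log2 1.42, SE 0.35, edgeR adjusted p 0.0374), except with no filter on low counts (edgeR adjusted p 0.00219) or at a threshold of 0.05.

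**Figure D4:**
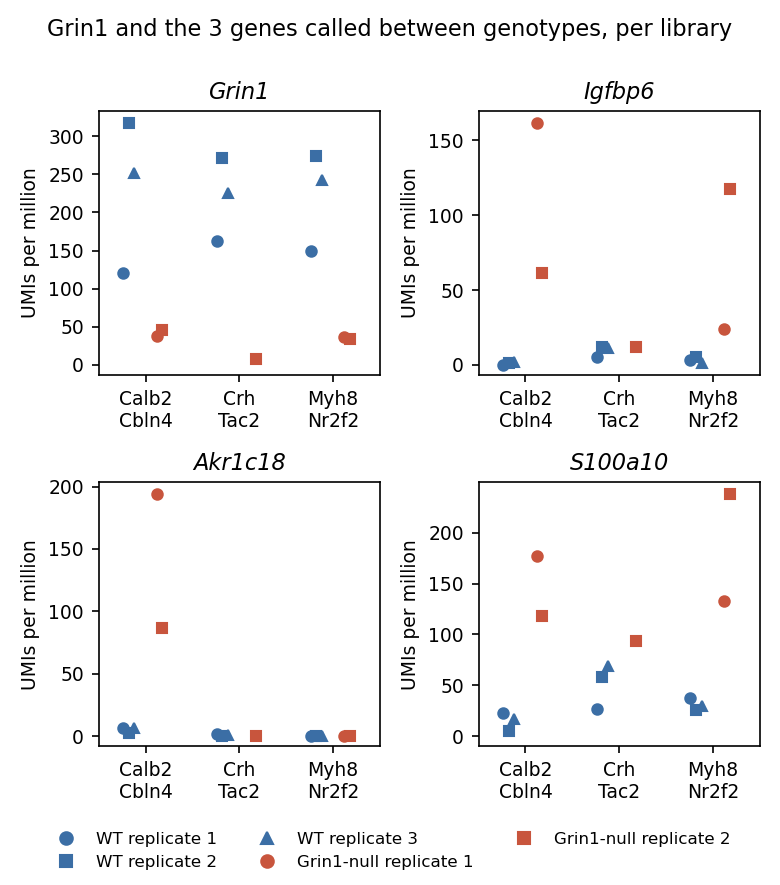
CPM of Grin1, Igfbp6, Akr1c18 and S100a10 in each cortex library of the Calb2 Cbln4, Crh Tac2 and Myh8 Nr2f2 Sst cells, 1 point per library, WT in blue and Grin1-null in red. In the Calb2 Cbln4 cells no null point overlaps a WT point in any of the 4 panels.

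Since the unthinned balance of Calb2 and Cbln4 differed between genotypes, the 3 genes were also read within it. An Akr1c18 UMI was found in 61.5% of the 26 null cells with more Cbln4 and in 15.4% of the 39 null cells with more Calb2, and in 13.6% of 22 and 3.11% of 386 WT cells. Thinned to 2000 UMIs the null shares were 30.8% and 2.56%. Igfbp6 was found in 57.7% and 10.3% of these null cells and in 4.55% and 0.777% of the WT cells, and in 7.69% of either null kind after thinning. S100a10 was found in 50.0% and 43.6% of null cells and in 9.09% and 6.74% of WT cells, and after thinning in 26.9% and 10.3% of null cells. These shares pool the cells of several libraries and were not tested. After thinning the 2 kinds of null cells had the same share for Igfbp6, and those with more Cbln4 the larger share for Akr1c18 and S100a10.

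Oligodendrocytes held Igfbp6 in 0.341% and 0.412% and S100a10 in 0.614% and 0.823% of WT and null cells. They held Akr1c18 in 0 of 1467 and 0 of 972 cells, which allows shares of up to 0.204% and 0.309%. The shares in null Calb2 Cbln4 cells are far above this background.

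A fit to cells with more Calb2 than Cbln4 alone, an alternative chosen after the data were seen, has 1 null library with enough cells, which is assumed to vary like the WT libraries. It called 4 of 8539 genes (0.0468%), Tac1, Arpp21, Spp1 and Serpine2, named after their values were seen. None of the 3 was among them, with Igfbp6 at a log2 change of 4.58 (edgeR adjusted p 0.196), Akr1c18 at 2.76 (edgeR adjusted p 0.777) and S100a10 at 2.68 (edgeR adjusted p 0.0278). A fit to all gated Sst cells, also chosen after the data were seen, called 1 of 11661 genes (0.00858%), Igfbp6, at 3.08 (edgeR adjusted p 0.00445), while Akr1c18 changed by 4.03 (edgeR adjusted p 0.0467) and S100a10 by 1.94 (edgeR adjusted p 0.0306). Across all alternatives that tested them, log2 changes ran from 3.08 to 6.69 for Igfbp6 (edgeR or DESeq2 adjusted p up to 0.196), from 2.76 to 5.24 for Akr1c18 (up to 0.777) and from 1.94 to 3.71 for S100a10 (up to 0.0306). All 3 were higher in null cells under every alternative that could test them. The gate on thinned cells, which called 3 of 8110 genes, could test only S100a10 of them and called it.

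The remaining NMDA receptor subunits gave no edgeR call over the 5 libraries. Apart from Grin1, 4 of 6 could be tested, with a median log2 change of -0.49, beside -0.01 over all genes tested. Grin2b stood at 403, 529 and 438 in WT and 307 and 244 in null libraries, without overlap, and changed by -0.76 (SE 0.32, edgeR adjusted p 0.999). Grin2a stood at 66.7, 69.7 and 94.1 (WT) and 43.1 and 36.7 (null), also without overlap, and changed by -1.06 (SE 0.38, edgeR adjusted p 0.839). Grin3a, which lowers the calcium flow of NMDA receptors, stood at 403, 704 and 717 (WT) and 570.4 and 494 (null), and Grin2d, the slowest subunit, at 12.7, 30.01 and 40.5 (WT) and 10.8 and 47.2 (null). Both overlapped between genotypes, with log2 changes of -0.21 (SE 0.32) and 0.17 (SE 0.45), and without Grin1-null replicate 2 the change of Grin2d reversed to -1.52.

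Neuropeptides, 9 of 16 tested, gave no call between genotypes (median log2 change 0.01). Tac1, the source of substance P, stood at 9.53, 36.4 and 20.4 in WT and 0 and 405 in null libraries, high in Grin1-null replicate 2 and not seen in the other. Its log2 change of 3.20 (SE 0.63, edgeR adjusted p 0.0490) reversed to -7.51 without that library, where no null UMI is left, and was called without WT replicate 1 (3.10, edgeR adjusted p 0.000398), WT replicate 2 (3.65, edgeR adjusted p 0.00426) or Grin1-null replicate 1 (4.01, edgeR adjusted p 2.17e-05). A Tac1 UMI was found in 6.15% of the 65 null cells, which is 4 cells, and in 4.11% of WT cells, against 2.68% and 2.86% of null and WT oligodendrocytes. Thinned to 2000 UMIs the shares were 3.08% and 1.49% of null and WT cells, so the null value rests on very few cells. Penk, the enkephalin precursor, stood at 0, 17.2 and 8.94 (WT) and 16.1 and 65.6 (null) (log2 2.22, SE 0.53, edgeR adjusted p 0.205), and Pnoc, the nociceptin precursor, at 41.3, 8.57 and 31.9 (WT) and 53.8 and 165 (null) (log2 2.21, SE 0.45, edgeR adjusted p 0.0490). The first overlapped between genotypes and the second did not, and without WT replicate 1 the second was called (2.43, edgeR adjusted p 0.000175). Cort, whose peptide cortistatin resembles somatostatin, was lower in null libraries, 841, 315 and 348 against 118 and 205, by 1.61 (SE 0.42, edgeR adjusted p 0.356) without passing the threshold. Under other settings some passed it: Tac1 and Pnoc with a replicate block (edgeR adjusted p 0.000681 and 0.000813), and Tac1, Pnoc, Penk and Cort with no filter on low counts (edgeR adjusted p 1.04e-14, 1.05e-05, 0.00262 and 0.00428). Pnoc passed it at a sum of at least 3 (edgeR adjusted p 0.00634), as did Tac1 there, without doublets, with sums of at least 20 cells and in cells with more Calb2 (edgeR adjusted p 2.15e-05, 0.000124, 2.17e-05 and 3.08e-05), settings that all leave Grin1-null replicate 1 out.

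Pdyn and Olfm3, the markers that the rule does not read, were present in both genotypes. Pdyn was higher in both null libraries (159, 167 and 124 against 253 and 275) by 0.82 on the log2 scale (SE 0.31, edgeR adjusted p 0.976), which was not called. Olfm3 overlapped between genotypes and changed by 0.11 (SE 0.32, edgeR adjusted p 0.999), with the opposite sign, -0.06, without WT replicate 1.

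Calcium-binding proteins were tested for 18 of 21, with S100a10 the 1 call and a median of 0.11. Necab2, a neuronal calcium binder, stood at 9.53, 11.8 and 4.69 in WT and 16.1 and 73.4 in null libraries, without overlap, and changed by 2.81 (SE 0.52, edgeR adjusted p 0.0242), with a call without WT replicate 1 (2.92, edgeR adjusted p 0.00067) or Grin1-null replicate 1 (3.21, edgeR adjusted p 0.0021) and with no filter on low counts (edgeR adjusted p 1.29e-05). Without doublets, at a sum of at least 3 or with sums of at least 20 cells, which leave Grin1-null replicate 1 out too, it was also called. Among activity-regulated genes, 15 of 24 tested with none called and a median of -0.09, Nptx2, a pentraxin that gathers AMPA receptors, stood at 0, 12.9 and 21.7 (WT) and 113 and 53.8 (null). Its null libraries lay above the WT libraries, with a log2 change of 2.24 (SE 0.49, edgeR adjusted p 0.0919), called without WT replicate 1 (1.97, edgeR adjusted p 0.0062), with a replicate block (2.97, edgeR adjusted p 0.000416) and with no filter on low counts (edgeR adjusted p 0.000237). Scg2, a granin of secretory vesicles, stood at 807, 573 and 586 (WT) and 253 and 355 (null), lower in both null libraries, and changed by -1.12 (SE 0.33, edgeR adjusted p 0.480). Among genes chosen after their values were seen, Pcp4, a calmodulin regulator, stood at 95.3, 121 and 110.3 in WT and 258 and 383 in null libraries (log2 1.55, SE 0.31, edgeR adjusted p 0.0490), and Trbc2, a T-cell receptor constant region transcribed in some neurons, at 41.3, 20.4 and 39.6 (WT) and 5.38 and 1.31 (null) (log2 -3.91, SE 0.80, edgeR adjusted p 0.0490). Neither overlapped between genotypes, and neither passed the threshold. Both passed it without WT replicate 1 (Pcp4 1.51, edgeR adjusted p 0.00655, and Trbc2 -3.83, edgeR adjusted p 0.00843) and with no filter on low counts (edgeR adjusted p 0.00654 and 0.000515), and Pcp4 also by DESeq2 (adjusted p 0.00914) and with the gate on thinned cells (edgeR adjusted p 0.00651).

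The other lists gave no call between genotypes by edgeR. Their median log2 changes were 0.22 for AMPA and kainate receptors (15 tested), -0.30 for metabotropic receptors and Elfn (6), -0.04 for cerebellins, neurexins and partners (8), 0.04 for olfactomedins (2) and 0.09 for peptide receptors (5). They were -0.33 for transcription factors of the lineage (21), 0.39 for genes naming other Sst types (9), 0.00 for GABA synthesis and transport (7) and 0.07 for GABA receptors (11). For further groups they were 0.12 for cadherins (19), 0.11 for potassium and HCN channels (24), 0.18 for cholinergic and monoamine receptors (8) and -0.34 for heat-shock genes (7). Markers of other cell types had medians of -1.27 for astrocytes (1), -0.62 for Pvalb cells (3), -0.23 for oligodendrocytes (3) and -0.18 for neurogliaform cells (1). The part of these markers in the results was not tested. Each of these medians stands beside -0.01 over all genes tested.

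Whether a genotype difference is particular to the Calb2 Cbln4 cells was tested as their null minus WT difference less the mean of the same difference in Crh Tac2 and Myh8 Nr2f2 cells. edgeR called 13 of 9868 genes (0.132%), 10 more positive and 3 more negative in the Calb2 Cbln4 cells, and 726 had an unadjusted p under 0.05. DESeq2 called 0, with 295 at an unadjusted p under 0.05 and a smallest adjusted p of 0.0235. Without WT replicate 3 the count was 6, without WT replicate 2 it was 23 and without Grin1-null replicate 1 it was 22, and without Grin1-null replicate 2 the model could not be fitted.

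Crhbp, higher in these cells than in both other groups, stood higher in null than in WT libraries of each Sst group tested. On the log2 scale the rise was smallest in these cells, where Crhbp was not called between genotypes. Its level went from 537, 518 and 596 to 1017 and 858 CPM here and from 40.3, 34.4 and 70.1 to 169 and 362 in Myh8 Nr2f2 cells. In Crh Tac2 cells it went from 19.4, 81.9 and 82.8 to 149. The difference of differences was -1.16 (SE 0.22, edgeR adjusted p 0.00330), and without WT replicate 1 it was -0.95 and no longer called (edgeR adjusted p 0.0211), nor was it with the gate on thinned cells (-0.94, edgeR adjusted p 0.304). Synpr, a synaptic vesicle protein, stood at 1543, 1052 and 1313 in WT and 786 and 940.2 in null libraries of the Calb2 Cbln4 cells, against 691, 589 and 735 (WT) and 858 (null) in Crh Tac2 and 969, 803 and 1012 (WT) and 1025 and 965 (null) in Myh8 Nr2f2 cells. Its null libraries were lower here, and the difference of -0.77 (SE 0.13, edgeR adjusted p 0.000645) was called without each library that could be left out.

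Vgf, the precursor of several secreted peptides, stood at 339.7, 746 and 536 in WT and 775 and 1151 in null libraries of these cells, 157, 407 and 375 (WT) and 328 (null) in Crh Tac2 and 169, 406 and 328 (WT) and 163 and 569 (null) in Myh8 Nr2f2 cells. Its difference of 0.78 (SE 0.16, edgeR adjusted p 0.00807) was 0.61 without Grin1-null replicate 1 (edgeR adjusted p 0.025) and 0.67 without WT replicate 3 (edgeR adjusted p 0.434), and the call was also lost without doublets, at a sum of at least 3 and with sums of at least 20 cells (edgeR adjusted p 0.0299, 0.0102 and 0.025). Fam19a2, a secreted chemokine-like protein, stood at 3.18, 5.36 and 5.54 (WT) and 10.8 and 36.7 (null) here, against 9.71, 16.4 and 7.63 (WT) and 4.37 (null) in Crh Tac2 and 17.8, 27.2 and 13.8 (WT) and 12.1 and 28.7 (null) in Myh8 Nr2f2 cells. Its difference of 2.93 (SE 0.61, edgeR adjusted p 0.00760) lost its call without WT replicate 1, 2 or 3 (edgeR adjusted p 0.0256, 0.0265 and 0.0278, log2 2.89, 2.65 and 3.56). Tmsb10, an actin monomer binder, stood at 1635, 2570 and 2478 (WT) and 1221 and 1499 (null), with a difference of -0.59 (SE 0.12, edgeR adjusted p 0.00749) that was -0.58 without WT replicate 2 (edgeR adjusted p 0.0274) and -0.56 without WT replicate 3 (edgeR adjusted p 0.227). With the gate on thinned cells, which leaves Grin1-null replicate 1 out, the difference was 0.01 for Vgf (edgeR adjusted p 0.999), 2.85 for Fam19a2 (edgeR adjusted p 0.167) and reversed to 0.14 for Tmsb10 (edgeR adjusted p 0.951), none of them called. For Pdyn and Olfm3 no such difference was called, with log2 values of 0.16 (SE 0.42) and 2.70 (SE 1.06), and that of Pdyn reversed to -0.17 without WT replicate 3.

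Gene lists held few calls of this kind. In the interaction 5 lists had a call, with Tac1 in the neuropeptides, the Pvalb markers and the genes naming other Sst types, Htr2c in the cholinergic and monoamine receptors and Crhbp in the peptide receptors. Tac1 and Htr2c rest on Grin1-null replicate 2, since neither had a UMI in the Calb2 Cbln4 cells of Grin1-null replicate 1. The call for Htr2c was lost without WT replicate 3 (log2 2.85, edgeR adjusted p 0.559) and that for Crhbp without WT replicate 1 (edgeR adjusted p 0.0211). NMDA receptor subunits other than Grin1, 4 tested, had a median of -0.01 beside 0.00 over all genes, and none was called. Activity-regulated genes, 18 tested, had a median of -0.23 and none was called. Neuropeptides, 11 tested, had a median of 0.96 and peptide receptors, 10 tested, -0.62. Markers of other cell types had medians of 3.10 for neurogliaform cells (3 tested), 1.44 for astrocytes (4) and 1.13 for Pvalb cells (3). Those for oligodendrocytes (5) had 0.09, caudal ganglionic eminence interneurons (1) 4.48 and microglia (1) -0.96. The part of these markers in the results was not tested.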

How the data were processed

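The values are the UMI counts the authors deposited, made with Cell Ranger on mm10 with gene ends extended by 4 kb (version 2.1.1 by the methods, 3.0.2 by the headers of the matrices). Libraries were told apart by barcode suffix and given replicate numbers by the cell numbers that the authors state. Cells were chosen by a rule on their own UMIs, and UMIs were summed per library and Sst group where at least 10 cells were present. CPM were computed from these sums. edgeR 4.0.16 with limma 3.58.1 in R 4.3.3 tested the sums (TMM, its filter on low counts, quasi-likelihood test, Benjamini-Hochberg), and shares were compared by exact permutation. Cells were read and gated in Python 3.11.15 (pandas 2.3.3, numpy 2.4.6, scipy 1.17.1), doublets were marked by Scrublet in scanpy 1.11.5, figures were drawn with matplotlib 3.10.9, and gene coordinates are those of GENCODE vM21. The 13 genes that the rules read stayed in library sizes and out of the tests, except that in the fit to all gated Sst cells the 6 genes of the pairs, which do not choose those cells, were kept in. The edgeR fits were tested on simulated library sums with 200 planted genes. The choice of cells, thinning, doublet marking, the permutation test and the naming rule were not part of that simulation.

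Named genes are Grin1, Olfm3 and Pdyn, then per comparison the 10 largest rises and 10 largest falls among called genes with a mean of at least 20 CPM in 1 group and, between genotypes, no overlap or, between subtypes, the same direction in every library, then some of the list members that were called and up to 4 others of each list, with the rest given as counts. Predicted genes were counted and not named. The members, markers and gene lists were chosen with earlier results on these data known. Alternatives were DESeq2 1.42.0, library-size scaling, no filter on low counts, an adjusted p of 0.05, other cell filters, removal of doublets, a sum of at least 3, a gate on thinned cells, sums of at least 20 cells, a replicate block or no library block, fewer libraries, and each library left out in turn. Fits to all gated Sst cells and to cells with more Calb2 than Cbln4 were chosen after seeing the data.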

Additional observations from a re-analysis of the deposited data

Results flagged for a closer look

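The genotype difference of 13 genes in the Calb2 Cbln4 cells departed from the mean difference in the Crh Tac2 and Myh8 Nr2f2 cells by edgeR's quasi-likelihood test, while DESeq2 called 0 of them (295 genes at an unadjusted p under 0.05). With the gate on thinned cells, which leaves Grin1-null replicate 1 out, edgeR called 18 of 7321 genes, Synpr and Arpp21 among them and not the other 11. Synpr (-0.77 on the log2 scale), Crhbp (-1.16) and Tmsb10 (-0.59) were more negative in the Calb2 Cbln4 cells. Of positive sign were the differences of Vgf (0.78) and Fam19a2 (2.93), whose values per library are in the results. Thsd7a, a thrombospondin-domain protein, stood at 394, 713 and 608 CPM in WT and 441 and 488 in null libraries of these cells, at 20.8, 42.1 and 47.0 (WT) and 4.37 (null) in Crh Tac2 and 50.8, 83.4 and 91.0 (WT) and 24.1 and 32.2 (null) in Myh8 Nr2f2 cells. It was lower in null libraries of the other groups and did not rise in these cells, and differed by 1.97 (SE 0.35), or 1.74 without WT replicate 3 (edgeR adjusted p 0.057). Chgb, a granin of secretory vesicles, stood at 289, 479 and 598 in WT and 791 and 485 in null libraries of these cells, at 180.3, 219.8 and 427 (WT) and 182 (null) in Crh Tac2 and 653, 1015 and 1217 (WT) and 832 and 573 (null) in Myh8 Nr2f2 cells, and differed by 0.81 (SE 0.16), or 0.70 without WT replicate 3 (edgeR adjusted p 0.287).

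Tac1, Arpp21 and Htr2c had no UMI in the Calb2 Cbln4 cells of Grin1-null replicate 1 and their highest level in Grin1-null replicate 2. Tac1 stood at 9.53, 36.4 and 20.4 CPM in WT and 0 and 405 in null libraries and differed by 4.98 (SE 0.47). Arpp21, a regulator of calmodulin signalling, stood at 3.18, 2.14 and 2.98 (WT) and 0 and 44.6 (null) and differed by 4.95 (SE 0.63). Htr2c, a serotonin receptor, stood at 6.35, 7.50 and 1.28 (WT) and 0 and 24.9 (null) and differed by 4.13 (SE 0.80), or 2.85 without WT replicate 3 (edgeR adjusted p 0.559).

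AI593442, a gene of no named function, stood at 168, 118 and 105 in WT and 188 and 239 in null libraries and differed by 0.91 (SE 0.19), with the call lost without WT replicate 2 (edgeR adjusted p 0.0186) or WT replicate 3 (edgeR adjusted p 0.242). Tmem115, a Golgi membrane protein, stood at 12.7, 21.4 and 15.8 (WT) and 10.8 and 38.0 (null) and differed by 2.47 (SE 0.52), lost without WT replicate 1 (edgeR adjusted p 0.0238) or WT replicate 3 (edgeR adjusted p 0.489). Nell2, a secreted guidance protein, stood at 19.1, 26.8 and 14.9 (WT) and 21.5 and 64.3 (null) and differed by 2.55 (SE 0.54), lost without WT replicate 1 (edgeR adjusted p 0.017) or WT replicate 3 (edgeR adjusted p 0.489). Thsd7a, Chgb, Arpp21, AI593442, Tmem115 and Nell2 lie outside the naming rule, chosen after their values were seen.

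In the hippocampus, which no comparison above uses, the same rule took 10.7%, 8.89% and 13.8% of the gated Sst cells in WT replicates 1, 2 and 3, and 21.7% and 26.6% in Grin1-null replicates 1 and 2. Both null libraries lay above all WT libraries, and the difference was not tested. The median gated Sst cell there held 5877, 2426 and 11550 UMIs in WT and 12751 and 14680 in null libraries. The part of this depth in the shares was not tested.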

How the results depend on the processing

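The 3 genes called between genotypes became 9 at an adjusted p of 0.05, 5 by DESeq2, 20 with no filter on low counts (where the median log2 change of all genes was -0.13), 8 without doublets, 10 at a sum of at least 3, 8 with sums of at least 20 cells, 3 with the gate on thinned cells (S100a10 and 2 others), 9 with a replicate block and 1 in all Sst cells, and 2 to 18 with 1 library left out. The 13 genes of the interaction became 34 at an adjusted p of 0.05, 0 by DESeq2 (295 at an unadjusted p under 0.05), 29 with no filter, 20 without doublets, 27 at a sum of at least 3, 18 with the gate on thinned cells and 22 with sums of at least 20 cells, and 6 to 23 with 1 library left out. The settings without doublets, at a sum of at least 3, with sums of at least 20 cells and with the gate on thinned cells also leave out the Calb2 Cbln4 cells of Grin1-null cortex replicate 1, too few there, so these counts do not show the effect of the named choice alone. With the minimum of 20 cells they equal those without Grin1-null cortex replicate 1 (8 and 22). Without Grin1-null cortex replicate 2 the interaction could not be fitted. Against Crh Tac2 cells the 822 became 399 with the gate on thinned cells and 251 with no library block, and 483 to 863 with 1 library left out. Against Myh8 Nr2f2 cells the 752 became 1153 at an adjusted p of 0.05, 311 with the thinned gate and 234 with no block, and 438 to 854 with 1 library left out. The share difference of 2.78 points became -0.707 as a share of all Gad1 or Gad2 cells and ran from -1.10 to 5.64 with 1 library left out. The thinned difference of 0.294 became -0.511 without doublets, -1.09 at a sum of at least 3 and -2.50 at 1000 UMIs, and ran from -2.30 to 2.63. With the thinned gate the log2 changes of Chgb (-0.27) and Tmsb10 (0.14) in the interaction, Olfm3 between genotypes (-0.52) and Grin1 against Myh8 Nr2f2 cells (-0.14) reversed. In all Sst cells those of Cort (0.12), Grin2d (-0.10) and Grin3a (0.027) between genotypes reversed. The interaction of Pdyn was -0.28 by DESeq2 and ran from -0.17 to 0.85 with 1 library left out, and the genotype change of Grin2d ran from -1.52 to 0.55, of Olfm3 from -0.064 to 0.27 and of Tac1 from -7.51 to 4.01. In each case the cause was not tested. Of single-gene values under the alternatives, direction and side of the threshold were kept by 1493 of 1612 against Crh Tac2 cells, 1428 of 1515 against Myh8 Nr2f2 cells, 299 of 353 between genotypes and 178 of 224 in the interaction. A lone null library is assumed to vary like the others. Replicate numbers paired weakly across genotypes (correlation of deviations 0.174 over 3554 genes).

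Of the 5 libraries Grin1-null replicate 1 has the fewest of these cells and UMIs. It holds 11 of these cells and 185845 UMIs, so 1 UMI there is 5.38 CPM. In the thinned gate, cells with under 2000 UMIs were left out, 4, 65 and 56 gated Sst cells of the WT and 11 and 30 of the null libraries, and other cells entered, as counted in the results.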

Other observations

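In the hippocampus the rule took 242 cells. More Cbln4 than Calb2 UMIs were seen in 52.6%, 27.8% and 41.9% of them in WT replicates 1, 2 and 3 and in 92.3% and 66.4% in Grin1-null replicates 1 and 2. Olfm3 stood at 282, 618 and 184 CPM in WT and 220 and 414 in null libraries, and Pdyn at 0, 16.3 and 2.78 in WT and 0 and 25.1 in null libraries. Akr1c18 stood at 0, 8.13 and 0 in WT and 70.3 and 34.8 in null libraries, and Grin1 at 99.1, 146 and 153 in WT and 28.1 and 30.4 in null libraries. No test was run on these values.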
